A study of Mus musculus with 12 samples.

Results

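The exosomal miRNAs of mouse granulosa cells loaded with iron were compared with those of untreated cells. The comparison took the 6 libraries whose treatment label was FAC or CON, 3 in each group, of the 12 libraries of the series, and covered all 637 miRNA entries of the deposited count tables. In both groups the cells stood for 24 h in medium freed of exosomes and were then cultured for 48 h. CON cells received no treatment, whereas FAC cells received 100 μM ferric citrate, an iron salt, and no chelator or antioxidant. The granulosa cells came from mice given gonadotropin, and the exosomes were collected from the medium of the cultured cells. The sources used here give neither the age of these mice nor whether replicates came from separate cultures, so the p-values may measure technical spread only.

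miRNAs are short RNAs that guide Argonaute proteins to messenger RNAs, most of which are then repressed. Target choice depends mainly on the seed, bases 2 to 8 counted from the 5′ end of the mature miRNA, and miRNAs that share a seed form a family whose members can act on much the same targets. The let-7 family is widely expressed in differentiated cells and represses growth genes such as Hmga2 and Lin28, and the miR-99 family is known to act on Mtor. Granulosa cells surround the oocyte and exchange material with it, also through vesicles, which is why the cargo of these exosomes was of interest under iron load.

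The mature sequences of the families that carried the main contrast are shown first, with the seed in capitals. Sequences and coordinates were those of RefSeq on GRCm38.p6, and exons and introns were those of GENCODE. let-7 members shared 1 seed and differed in few bases outside it, so reads could be split among them, and the family sum was used beside the single entries:
let-7a-5p: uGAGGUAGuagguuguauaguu
let-7b-5p: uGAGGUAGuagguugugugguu
let-7c-5p: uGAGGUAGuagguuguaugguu
let-7d-5p: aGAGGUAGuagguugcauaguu
let-7e-5p: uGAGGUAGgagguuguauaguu
let-7f-5p: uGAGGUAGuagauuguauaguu
let-7i-5p: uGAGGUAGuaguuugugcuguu

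The miR-99 and miR-148 families had the largest mean shares in FAC, and members of the miR-99 family lie beside let-7 members in the genome:
miR-99a-5p: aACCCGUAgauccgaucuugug
miR-99b-5p: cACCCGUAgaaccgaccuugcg
miR-100-5p: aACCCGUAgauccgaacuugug
miR-148a-3p: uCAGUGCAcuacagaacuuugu
miR-148b-3p: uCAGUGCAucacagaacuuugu
miR-152-3p: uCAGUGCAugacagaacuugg

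let-7b-5p lay at chr15:85707325-85707346 (plus strand) in an exon of the noncoding gene Lncppara, with 1 copy of let-7c-5p at chr15:85706616-85706637 in the same gene. The other copy of let-7c-5p lay at chr16:77599672-77599693 (plus strand) in an intron of the noncoding gene Mir99ahg, which also holds miR-99a-5p at chr16:77598940-77598961. let-7e-5p at chr17:17830366-17830387 and miR-99b-5p at chr17:17830194-17830215, both on the plus strand, lay in an intron of Spaca6. miR-148a-3p at chr6:51269829-51269850 (minus strand) lay in no other GENCODE gene. These single-entry sequences are shown because the entries passed the threshold with groups that did not overlap, the first 6 higher and the last 4 lower in FAC:
miR-23a-3p: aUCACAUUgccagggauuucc
miR-30a-5p: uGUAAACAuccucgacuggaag
miR-221-3p: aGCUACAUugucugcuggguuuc
miR-146a-5p: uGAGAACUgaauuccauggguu
miR-103-3p: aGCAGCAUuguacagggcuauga
miR-182-5p: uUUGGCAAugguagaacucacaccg
miR-615-3p: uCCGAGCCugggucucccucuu
miR-674-3p: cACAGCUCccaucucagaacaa
miR-125b-1-3p: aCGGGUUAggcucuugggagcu
miR-130b-5p: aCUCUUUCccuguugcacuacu

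The miRNA counts summed to between 452021 and 1211227 in the CON libraries and between 5219420 and 7565362 in the FAC libraries, although the read totals of the 6 libraries lay close together, from 22631206 to 24845945. miRNAs therefore took 5.0%, 2.0% and 2.83% of the reads in CON replicates 1 to 3 and 30.4%, 21.6% and 22.1% in FAC replicates 1 to 3. Every FAC library lay above every CON library (3.28% ± 1.55 against 24.7% ± 4.96, SD, n = 3 each, p = 0.1 in a two-sided exact permutation test). With groups of 3 no such test can give a p below 0.1. No values for the amount of RNA in the exosomes were used here, so levels are given relative to the miRNAs of the same library, as normalised CPM, counts scaled to a common library size by the trimmed mean of M values, unless another scale is named. A floor of 3 counts was 6.64 CPM, before the trimmed mean was applied, in CON replicate 2 and 0.397 CPM in FAC replicate 1. Of the FAC libraries, replicate 3 lay nearest to CON for many entries. Values without it are given with some of the results and, for further entries, in the last part of the text. Its depth was like that of FAC replicate 2, but its number of miRNAs with a count, 299, lay near the 266, 267 and 284 of the CON libraries while the other FAC libraries held 402 and 475. Thinned to 452021 counts each, the CON libraries held 238, 267 and 252 miRNAs and the FAC libraries 349, 408 and 242, which overlapped.

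**Figure D1:**
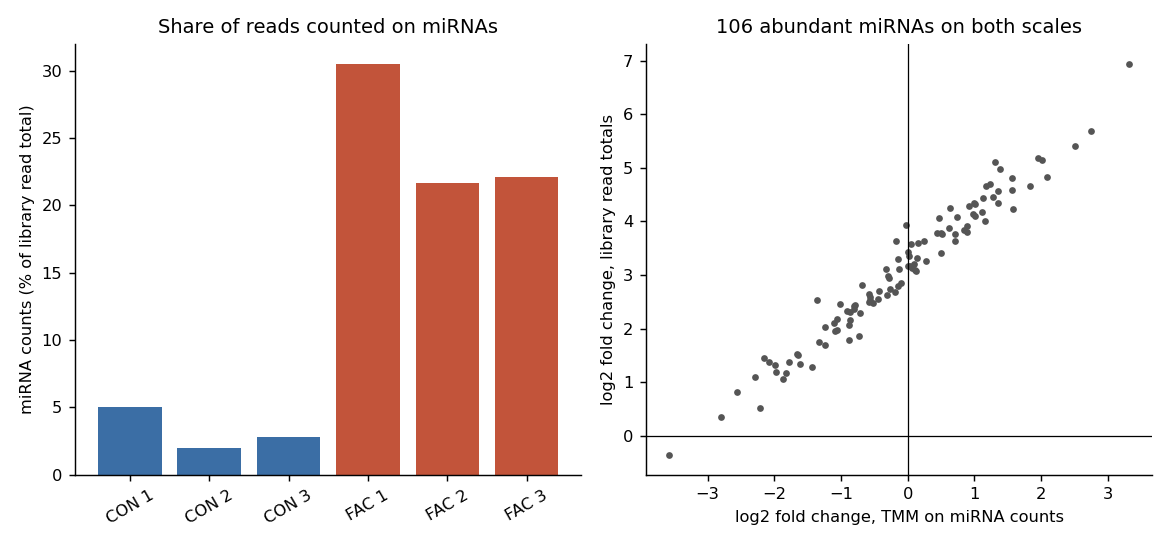
Left, miRNA counts as a percentage of the library read total in each of the 6 libraries, 2.0% to 5.0% in CON and 21.6% to 30.4% in FAC. Right, log2 fold change (FAC over CON) of the 106 abundant miRNAs on the miRNA scale (x axis) and on the scale of library read totals (y axis), where the median moved from -0.11 to 3.11.

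Markers of other cell types were read before the comparison. miR-122-5p, the abundant miRNA of hepatocytes, was among the leading entries in all 6 libraries, with 109352, 132209 and 117710 CPM in CON and 53944, 51893 and 136453 CPM in FAC, so the 2 groups overlapped. The erythroid list (miR-451a, miR-486a and miR-144) summed to 30269 to 66408 CPM in CON and 7346 to 108360 CPM in FAC, with the highest value in FAC replicate 3 and no miR-144-3p count in any library. The stromal and theca list summed to 31035 to 109235 CPM in CON and 37338 to 66716 CPM in FAC, nearly all of it miR-143-3p. The muscle list, with 2 entries found, summed to 592, 292 and 307 CPM in CON and 162, 148 and 202 CPM in FAC. It was thus lower in every FAC library on this scale. Leukocyte, endothelial, epithelial and oocyte and embryo lists stayed at or under 336 CPM in each of the 6 libraries. Only 1 of the 5 oocyte and embryo miRNAs and 1 of the 2 endothelial ones had an entry. The low sums of these lists therefore do not show that such miRNAs were absent. Of the 15 ovarian follicle entries found, such as miR-21a-5p, miR-125b-5p and miR-224-5p, 7 were abundant, and the list summed to 14761 to 22355 CPM in CON and 13976 to 22702 CPM in FAC. The part of the cells behind the other markers in the results below was not tested.

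Across all entries, ferric citrate went with fewer let-7 reads and more miR-99a-5p, miR-23a-3p and miR-30a-5p reads relative to the other miRNAs. Entries had to reach 10 counts in all over the 12 libraries to be tested, and of the 547 that did, 52 differed at a fold change of 1.5 or more and an unadjusted p under 0.05 (9.51%, edgeR quasi-likelihood test), the threshold named here after the study's methods. Entries and families past it are said to pass, to rise or to fall, and the p printed with them is the adjusted one over all that were tested. Among them 13 rose (2.38%) and 39 fell (7.13%). Only let-7b-5p passed an adjusted p of 0.05 over all 547 (0.183%, Benjamini-Hochberg). Scaling to total miRNA counts in place of the trimmed mean gave 52 calls with 23 higher and 29 lower, while scaling to library read totals gave 159 calls, all higher. The split between rising and falling miRNAs therefore belongs to the scale, and directions below are relative to the other miRNAs.

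Many of the falling entries rested on few reads. In 10 of the 39 no FAC library held more than 3 counts. In 14 of the 39, over 90% of the normalised CPM summed over the CON libraries lay in 1 library. The 13 rising entries had FAC and CON libraries that did not overlap, against 10 of the 39 falling ones. Over the 547 entries the libraries did not overlap in 73 (13.3%), 55 with FAC higher (10.1%) and 18 with FAC lower (3.29%). Of the 52 calls, 16 passed with each of the 6 libraries left out in turn. miR-27b-5p, chosen after its values were seen, was the 1 rising entry with at most 3 counts in each CON library, with 0, 0 and 0 counts in CON and 90, 52 and 179 counts in FAC.

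**Figure D2:**
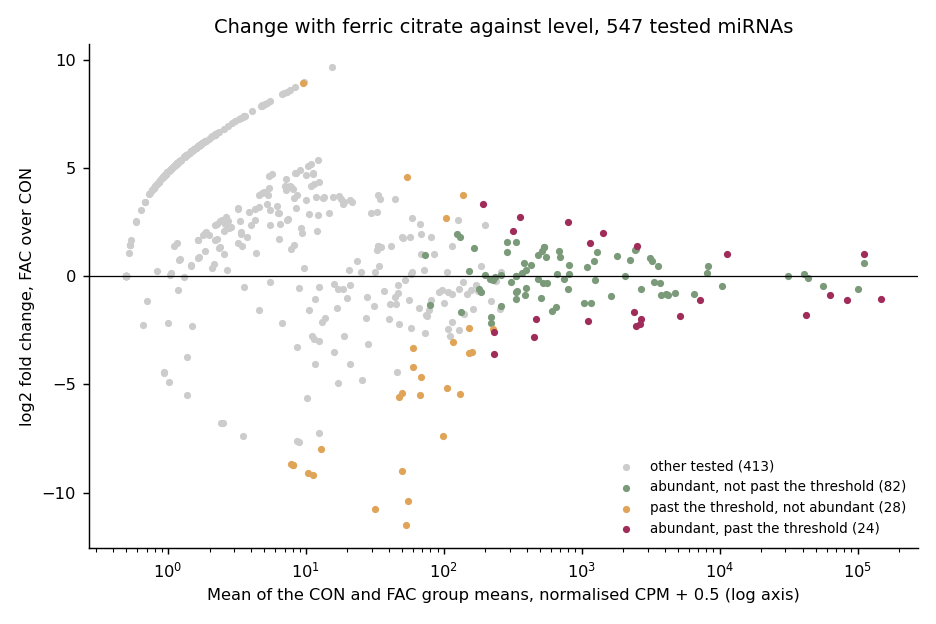
log2 fold change (FAC over CON, normalised CPM scale) of the 547 tested miRNAs against their mean level (log axis). Points are coloured by whether an entry was abundant and past the threshold, and falling calls of over 5 log2 units lay at low levels, away from the 24 abundant calls.

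The abundant cargo was more even in its error. At least 10 counts in all 6 libraries were found for 106 entries, which together held 98.8% to 99.3% of the miRNA counts of a library. Of these, 24 passed the threshold in the fit of all entries (22.6%), 9 higher and 15 lower, and their median log2 fold change was -0.11 against 1.38 over the 547. The biological coefficient of variation was 1.57 in the fit of all entries and 0.605 when the abundant entries were fitted alone. The latter fit called 31 entries (29.2%), 14 higher and 17 lower. Of the 106, 8 then passed an adjusted p of 0.05 (7.55%): miR-23a-3p rose, and let-7b-5p, let-7e-5p, miR-615-3p, miR-674-3p, miR-125b-1-3p, miR-328-3p and miR-130b-5p fell (adjusted p = 0.0418 for each, edgeR).

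The let-7 family was the largest seed family of the cargo in CON, lay behind the miR-99 and miR-148 families by mean share in FAC, and had the smallest p of the families. It made up 21.6%, 26.0% and 31.0% of the abundant counts in CON replicates 1 to 3 and 11.2%, 16.6% and 15.1% in FAC replicates 1 to 3. All FAC shares lay below all CON shares, at 14.3% ± 2.80 against 26.2% ± 4.72 (SD, n = 3 each, two-sided exact permutation test, p = 0.1 and adjusted p = 0.267 over the 8 leading families). In CPM the family sum was 211581, 306504 and 337656 in CON and 98250, 114530 and 164616 in FAC. This was a log2 fold change of -1.18 (SE 0.31, adjusted p = 0.0618 over 473 families, edgeR), and it passed the threshold without any 1 library, at -1.39 to -0.95. On the scale of library read totals the direction turned, to a log2 fold change of 2.06.

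Within the family 3 members passed the threshold, and most of the fall in CPM lay in let-7c-5p and let-7b-5p. let-7c-5p, the most abundant, had 148688, 219205 and 229381 CPM in CON and 74082, 90069 and 121407 CPM in FAC, a log2 fold change of -1.06 (SE 0.34, adjusted p = 0.0966, edgeR). let-7b-5p had 46520, 66864 and 83377 CPM in CON and 9890, 14283 and 33302 CPM in FAC. It fell by 1.78 on the log2 scale (SE 0.41, adjusted p = 0.00783, edgeR), and in both members no FAC library reached a CON library. The adjusted p of let-7b-5p rose above 0.05 when CON replicate 2 (0.0726), CON replicate 3 (0.0599), FAC replicate 1 (0.111) or FAC replicate 2 (0.102) was left out, and leaving out FAC replicate 3 gave 5.54e-08. It passed the threshold in each case. let-7e-5p had 1286, 4312 and 6735 CPM in CON and 641, 608 and 1280 CPM in FAC, a log2 fold change of -2.29 (SE 0.65, adjusted p = 0.0762), with CON replicate 1 just above FAC replicate 3. All 3 were higher in FAC on the read total scale.

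The other let-7 members did not pass the threshold. let-7a-5p (-0.81) and miR-98-5p (-1.32) lay lower in every FAC library than in every CON library. let-7i-5p (-0.79), let-7g-5p (-0.58) and let-7f-5p (-0.33) overlapped between the groups. let-7d-5p went the other way, with 68.8, 52.7 and 29.9 CPM in CON and 271, 272 and 45.9 CPM in FAC, a log2 fold change of 1.96 (SE 1.15, adjusted p = 0.607). Its opposite arm, let-7d-3p, was far more abundant than the 5p arm in all 6 libraries, and the log2 ratio of 5p to 3p counts was -6.33, -7.63 and -8.74 in CON and -3.29, -3.30 and -7.50 in FAC, where FAC replicate 3 lay within the CON range.

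**Figure D3:**
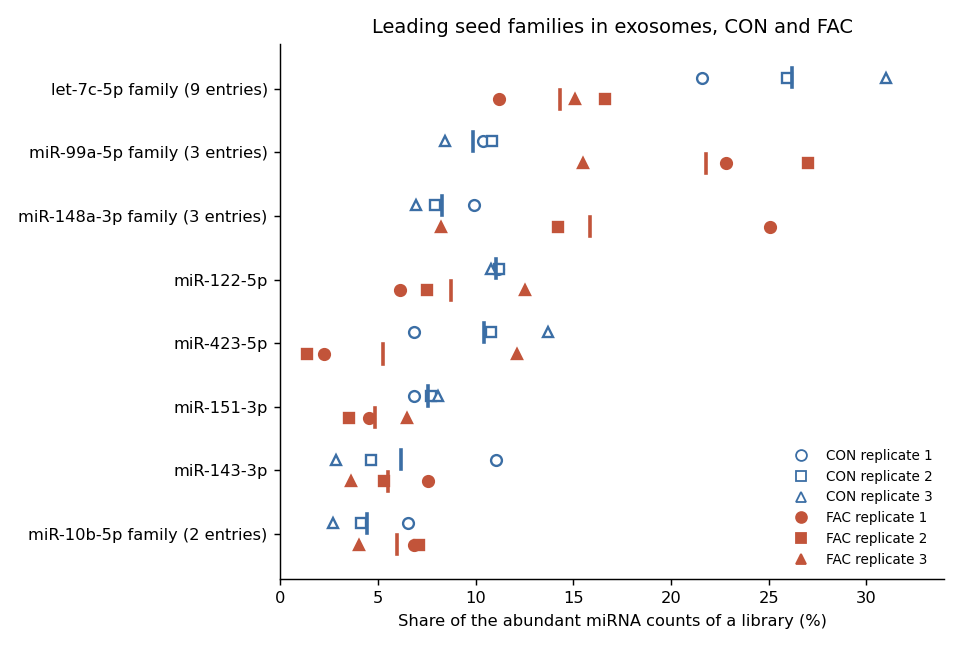
Share of the abundant miRNA counts held by the 8 leading seed families, 1 symbol for each library and a bar for each group mean (open blue CON, filled red FAC). The let-7 family (21.6% to 31.0% in CON, 11.2% to 16.6% in FAC) and the miR-99 family (8.42% to 10.8% and 15.5% to 27.0%) did not overlap between groups.

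The miR-99 family took the opposite course. It held 10.4%, 10.8% and 8.42% of the abundant counts in CON replicates 1 to 3 and 22.8%, 27.0% and 15.5% in FAC replicates 1 to 3, with all FAC shares above all CON shares (9.89% ± 1.29 against 21.8% ± 5.84, SD, n = 3 each, two-sided exact permutation test, p = 0.1 and adjusted p = 0.267 over the 8 families). Its log2 fold change was 0.79 (SE 0.33, adjusted p = 0.36, edgeR), and it no longer passed without CON replicate 1 (0.75), with DESeq2 (0.58), with DESeq2 size factors (0.62), after filterByExpr (0.79) or with the trimmed mean taken on the family table (0.62). It was higher in FAC on the scale of library read totals too. miR-99a-5p carried the rise, with 69958, 89029 and 62216 CPM in CON and 173152, 161330 and 113503 CPM in FAC, a log2 fold change of 1.02 (SE 0.36, adjusted p = 0.135). miR-99b-5p, the second member, had 27854, 36466 and 28884 CPM in CON and 23694, 20729 and 50764 CPM in FAC, a log2 fold change of 0.03, and miR-100-5p had 0.72 (adjusted p = 0.607). Neither separated the groups.

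Because a ratio within a library needs no scaling between libraries, the 2 families were also divided by each other, a measure chosen after their shares had been seen. There were 2.07, 2.39 and 3.68 let-7 counts for each miR-99 count in CON replicates 1 to 3 and 0.491, 0.616 and 0.975 in FAC replicates 1 to 3. let-7 reads thus outnumbered miR-99 reads in every CON library and were fewer in every FAC library, at 2.72 ± 0.852 against 0.694 ± 0.251 (SD, n = 3 each).

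Genomic neighbours were then compared in the same way. Of the abundant entries, 29 pairs from different hairpins lay within 10 kb on 1 strand, and in 16 of them (55.2%) the count ratio of the pair did not overlap between FAC and CON, compared with 1472 of all 5565 pairs of abundant entries (26.5%). Entries without a RefSeq mature sequence, or on 1 chromosome that was left out, could form no neighbour pair, though all pairs included them. Pairs shared entries, and entries encoded at several loci could come from elsewhere, so no test was made. The ratio of miR-99a-5p to let-7c-5p, 710 bases apart on chromosome 16, was -1.09, -1.30 and -1.88 on the log2 scale in CON and 1.22, 0.84 and -0.10 in FAC. let-7c-5p has a second locus, but the pair of miR-99b-5p and let-7e-5p, 150 bases apart on chromosome 17, has 1 locus each. Its log2 ratio was 4.44, 3.08 and 2.10 in CON and 5.21, 5.09 and 5.31 in FAC. On chromosome 8, miR-23a-3p against miR-27a-3p, 143 bases apart, moved from -0.48, 0.09 and -1.77 in CON to 0.99, 1.13 and 0.48 in FAC. In these clusters on chromosomes 16 and 17, the ratio of the miR-99 to the let-7 member was higher in every FAC library than in every CON library. miR-99a-5p, let-7c-5p and let-7e-5p had been named because their groups did not overlap, so these ratios partly restate that choice. On chromosome 17 the shift lay in let-7e-5p (log2 fold change -2.29) on the miRNA scale, with miR-99b-5p at 0.03. The ratio alone cannot tell which member moved, and on library read totals let-7e-5p had 1.10. miR-100-5p and the let-7a-2 hairpin also lie near each other on chromosome 9, but the sequence table places let-7a-5p on chromosome 13 alone, so that pair was not compared. By contrast, the log2 ratio of miR-27a-3p to miR-24-3p was -2.19 ± 0.91 in CON and -2.22 ± 0.42 in FAC (SD, n = 3 each).

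**Figure D4:**
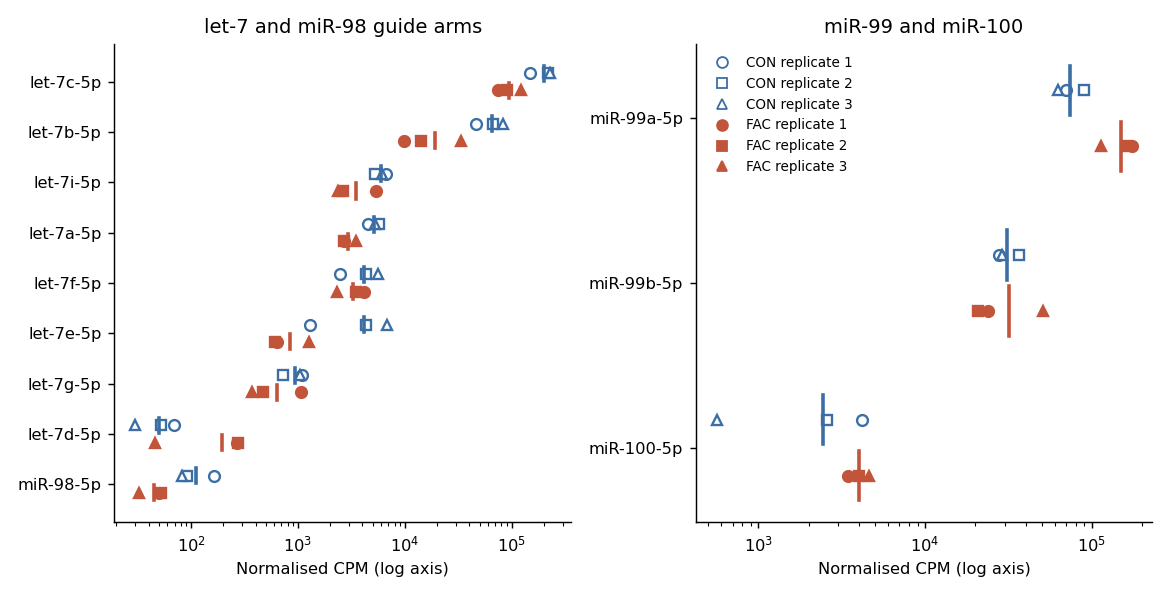
Normalised CPM (log axis) of the abundant members of the let-7 family (left) and the miR-99 family (right) in each library, with a bar for each group mean (open blue CON, filled red FAC). let-7b-5p, let-7c-5p and let-7e-5p lay lower in all 3 FAC libraries on this scale, though higher on that of read totals, and miR-99a-5p lay higher on both.

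The other leading entries of the cargo moved less evenly. The miR-148 family, nearly all miR-148a-3p, held 9.91%, 7.92% and 6.96% of the abundant counts in CON replicates 1 to 3 and 25.1%, 14.2% and 8.25% in FAC replicates 1 to 3. FAC replicate 3 lay within the CON range, and the log2 fold change of the family, 0.61 (SE 0.36, adjusted p = 0.607), did not pass, though it did when scaled to total miRNA counts (0.94, adjusted p = 0.152). Without FAC replicate 1 it was 0.049, and it passed without FAC replicate 2 (0.92, adjusted p = 0.485) and without FAC replicate 3 (0.85, adjusted p = 0.0993). miR-423-5p, common in vesicles, fell with a log2 fold change of -1.09 (SE 0.36, adjusted p = 0.101), but the fall rested on FAC replicates 1 and 2. Its CPM was 66998, 127212 and 149381 in CON and 19856, 9418 and 131944 in FAC, and the log2 fold change was -2.95 without FAC replicate 3 and -0.67, no longer past the threshold, without FAC replicate 2. It did not pass with DESeq2 (adjusted p = 0.277) or in the fit of abundant entries alone (adjusted p = 0.236) either. miR-151-3p had 67311, 91051 and 87953 CPM in CON and 40030, 24188 and 70829 CPM in FAC, a log2 fold change of -0.87 (SE 0.38, adjusted p = 0.418). Its share of the abundant counts was lower in every FAC library, 4.85% ± 1.51 against 7.55% ± 0.621 (SD, n = 3 each), but the call was lost without CON replicate 2, CON replicate 3 or FAC replicate 2. It was also lost with total miRNA counts (-0.64), after filterByExpr and after thinning (-0.80). Both entries were higher in FAC on the read total scale.

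miR-122-5p, miR-143-3p, miR-10b-5p and the joined entry of miR-486a-5p and miR-486b-5p did not pass. miR-122-5p had a log2 fold change of -0.57 (adjusted p = 0.607), and -1.16 without FAC replicate 3 (adjusted p = 0.00509, edgeR). It also passed with DESeq2 size factors (-0.81, adjusted p = 0.318, edgeR). miR-486a-5p, an erythroid miRNA, held 4.09%, 5.51% and 2.71% of the abundant counts in CON and 0.786%, 1.90% and 9.75% in FAC, so its FAC libraries lay on either side of the CON range. Its log2 fold change was -0.09, and -2.15 without FAC replicate 3 (adjusted p = 3.71e-07, edgeR). With the replicate number as a block it passed at -0.95 (adjusted p = 0.554, edgeR). The miR-10 family, encoded among the Hox genes, had 64233, 48716 and 29156 CPM in CON and 60042, 48991 and 43786 CPM in FAC. miR-143-3p had 108430, 54714 and 30994 CPM in CON and 66232, 36692 and 39227 CPM in FAC. In both, the FAC libraries lay inside the CON range.

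How concentrated the cargo was did not differ beyond the spread between libraries. The 10 leading entries of each library held 82.6% ± 0.362 of the abundant counts in CON and 82.0% ± 2.10 in FAC (SD, n = 3 each, two-sided exact permutation test, p = 0.7). The effective number of entries, the exponential of the Shannon entropy of the shares, was 17.9 ± 0.918 in CON and 17 ± 1.75 in FAC (p = 0.6, the same exact test). The entry that led the cargo was let-7c-5p in each CON library, at 15.2%, 18.6% and 21.1%. In FAC it was miR-148a-3p in replicate 1 at 24.9%, miR-99a-5p in replicate 2 at 23.4% and miR-122-5p in replicate 3 at 12.5%.

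Of the rising entries outside these families, 2 were the miR-23 paralogs. miR-23a-3p, from the cluster with miR-27a and miR-24, had 480, 126 and 110 CPM in CON and 1640, 1623 and 818 CPM in FAC, a log2 fold change of 2.51 (SE 0.89, adjusted p = 0.135, edgeR). miR-23b-3p, encoded on another chromosome, had 11.5, 52.7 and 40.9 CPM in CON and 450, 338 and 260 CPM in FAC, a log2 fold change of 3.33 (SE 1.34, adjusted p = 0.258). Both passed without any 1 library. miR-30a-5p, which acts broadly in differentiated tissue, had 685, 261 and 760 CPM in CON and 2417, 3097 and 1381 CPM in FAC, a log2 fold change of 2.01 (SE 0.74, adjusted p = 0.155). The miR-30 seed family rose by 1.56 on the log2 scale (SE 0.72, adjusted p = 0.475), but with miR-30b-5p and miR-30d-5p, for which no sequence was matched, joined by name, the value was 1.10 and did not pass. The seed family did not pass without FAC replicate 1, without FAC replicate 2, with DESeq2 size factors (1.40), with the 6 libraries alone (1.55) or with the trimmed mean taken on families (1.32) either.

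miR-221-3p, known to repress Kit and the cell cycle inhibitor Cdkn1b, had 187, 50.02 and 39.3 CPM in CON and 755, 879 and 224 CPM in FAC, a log2 fold change of 2.74 (SE 1.07, adjusted p = 0.212). Summed with miR-222-3p, which has the same seed, it was 2.61 (SE 1.01, adjusted p = 0.232), and the sum passed without any 1 library. miR-146a-5p, which restrains NF-kB signalling through Traf6 and Irak1, was close to its floor in CON with 10, 8 and 18 counts and had 2177, 3047 and 505 counts in FAC. With miR-146b-5p its log2 fold change was 3.77 (SE 1.37, adjusted p = 0.178), at 3.37 to 4.33 with each library left out. miR-103-3p, encoded in introns of Pank2 and Pank3, had 2, 2 and 4 counts in CON and 1132, 1060 and 169 counts in FAC. Its log2 fold change of 4.57 (SE 1.96, adjusted p = 0.36) rested on a CON level at the floor and did not pass without FAC replicate 1 or without FAC replicate 2. In each of these, FAC replicate 3 was the lowest FAC library but lay above all CON libraries.

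miR-182-5p, a member of the cluster with miR-183, had 593, 1761 and 1835 CPM in CON and 6551, 2188 and 2184 CPM in FAC, a log2 fold change of 1.38 (SE 0.64, adjusted p = 0.466). Its rise rested on FAC replicate 1, without which the log2 fold change was 0.62, and without CON replicate 1 it was 1.02, neither past the threshold. It did not pass with DESeq2 size factors (1.10), with DESeq2 (1.10) or with the 6 libraries fitted alone (1.38) either.

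**Figure D5:**
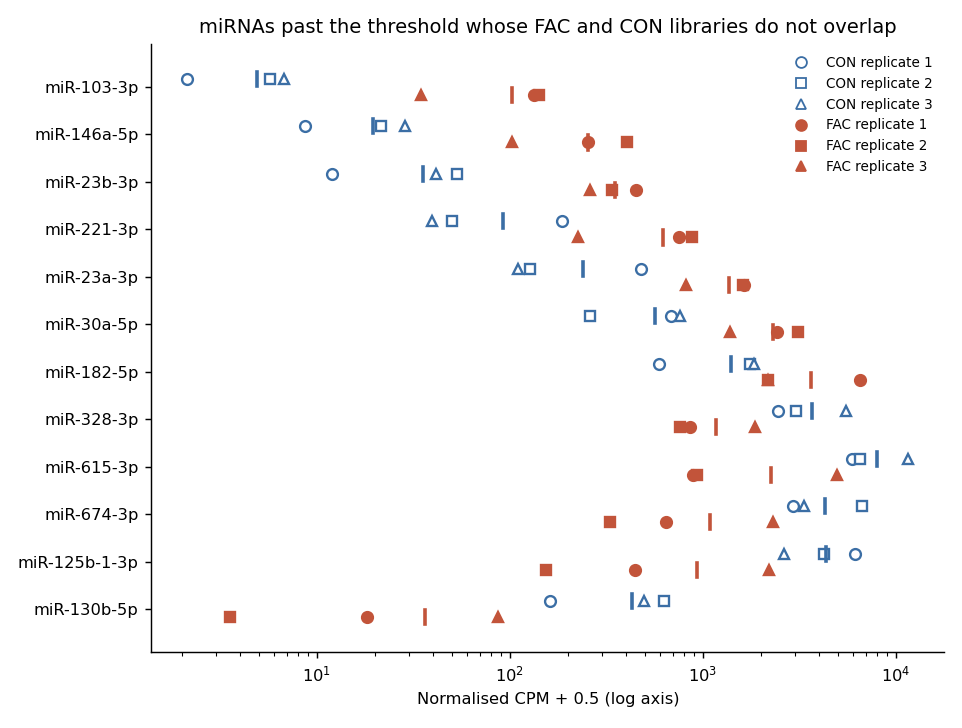
Normalised CPM plus 0.5 (log axis) in each library of 12 miRNAs past the threshold whose FAC and CON libraries did not overlap (open blue CON, filled red FAC, bar for the group mean), ordered by log2 fold change. FAC replicate 3 was the highest FAC library for the 5 falling miRNAs and the lowest for the 7 rising ones.

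The 5 entries outside the let-7 family that fell with an adjusted p under 0.05 among the abundant ones had FAC replicates 1 and 2 farthest below CON and FAC replicate 3 between. Not every other falling entry had this order. miR-615-3p, from an intron of Hoxc5, had 5947, 6500 and 11612 CPM in CON and 889, 930.5 and 4954 CPM in FAC, a log2 fold change of -1.83 (SE 0.56, adjusted p = 0.0937). miR-674-3p had 2918, 6666 and 3338 CPM in CON and 641, 330 and 2314 CPM in FAC, a log2 fold change of -1.98 (SE 0.63, adjusted p = 0.0966). miR-125b-1-3p, the less used arm of a hairpin whose 5p arm is the common one, had 6145, 4228 and 2620 CPM in CON and 445, 154 and 2196 CPM in FAC, a log2 fold change of -2.22 (SE 0.65, adjusted p = 0.0762). The common arm, miR-125b-5p, which has a second locus, did not pass, at 0.50 (adjusted p = 0.607).

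miR-328-3p had 2464, 3028 and 5485 CPM in CON and 857, 763 and 1871 CPM in FAC, a log2 fold change of -1.65 (SE 0.64, adjusted p = 0.208), and it did not pass without CON replicate 3. miR-130b-5p outnumbered the other arm of its hairpin in every CON library (197, 238 and 317 counts against 0, 0 and 3) and had 161, 627 and 499 CPM in CON and 17.7, 3.07 and 86.9 CPM in FAC. Its log2 fold change was -3.58 (SE 1.18, adjusted p = 0.101), the steepest fall among the abundant entries. Of these 5 entries, miR-615-3p, miR-674-3p, miR-125b-1-3p and miR-130b-5p passed without any 1 library. On the read total scale the first 4 named here, miR-615-3p, miR-674-3p, miR-125b-1-3p and miR-328-3p, were higher in FAC.

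Summed by seed, 45 of 473 families passed the threshold (9.51%), 10 higher (2.11%) and 35 lower (7.4%), while the scaling to total miRNA counts gave 20 higher and 26 lower. None passed an adjusted p of 0.05 in the edgeR fit, where 45 had an unadjusted p under 0.05, but DESeq2 called 18 families at that adjusted p. FAC and CON libraries did not overlap in 64 families (13.5%), 50 with FAC higher (10.6%) and 14 with FAC lower (2.96%), and in 18 of the 45 called ones, and 11 of the 45 passed with each library left out in turn. Most units held 1 entry. Of 50 tested families with at least 2 counted members, 8 passed: those of let-7, miR-130b-5p and miR-3077-3p fell, and those of miR-99, miR-30, miR-221, miR-146 and miR-103 rose. The miR-103 family (3.75) did not pass with the 6 libraries alone (3.74), with the trimmed mean on families (3.36) or without CON replicate 1 (3.46), FAC replicate 1 (3.61) or FAC replicate 2 (3.50). The pair of miR-3077-3p and miR-7661-3p had 1, 3 and 182 counts in CON and 0, 48 and 2 counts in FAC, so that its fall rested on CON replicate 3 (log2 fold change -0.63 without it). The abundant entries formed 85 units, of which 20 passed in the fit of all families (23.5%) and 27 when fitted alone (31.8%), with 6 at an adjusted p of 0.05 (7.06%), 1 higher and 5 lower.

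let-7j, whose seed differs from that of the let-7 family in its last base, was counted with miR-202-3p, an ovarian and testicular miRNA that had 1 count in CON and 20 in FAC over the 3 libraries of each group. The pair had 148, 479 and 456 CPM in CON and 137, 58.4 and 51.2 CPM in FAC. FAC was lower throughout, but the log2 fold change of -2.13 (SE 1.28, adjusted p = 0.607) did not pass. The miR-200b seed family, an epithelial marker group, was nearly absent except for CON replicate 1, at 179, 0 and 1.57 CPM in CON and 3.28, 9.88 and 0 CPM in FAC.

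At the 9.51% called among all entries, each list of miRNAs by role would hold about 1 call, and the 0 to 2 calls found show nothing particular to a list. None of the 14 tested entries of the ovarian follicle list passed, and their median log2 fold change was 0.47. Of these, miR-224-5p (1.14), miR-181a-5p (0.89) and miR-125b-5p (0.50) had higher and miR-320-3p (-0.81) lower values in FAC (adjusted p = 0.607 for each). None of the 11 tested entries of the iron handling list, miRNAs known to act on genes of iron uptake, storage or export, passed either. Their median was 0.61, against 1.38 over all tested entries and -0.11 over the abundant ones. Of the list, 6 entries were abundant, so neither median is a like baseline. miR-485-3p, also on this list, had no entry in the count tables. miR-485-5p, the other arm of its hairpin, had a log2 fold change of -1.87 (adjusted p = 0.582). Its counts were 464, 127 and 200 in CON and 400, 352 and 927 in FAC. miR-210-3p, which targets the iron-sulphur cluster assembly gene Iscu, was counted 2, 0 and 1 times in CON and 3, 2 and 209 times in FAC, so that only FAC replicate 3 held it. let-7d-5p and miR-148a-3p, described above, were the other list members with the smallest p.

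Of 10 entries often used as references in vesicle studies, miR-103-3p rose and miR-423-5p fell, and the median log2 fold change was -0.15. miR-21a-5p (0.00), miR-30c-5p (0.15), miR-26a-5p (-0.30) and miR-191-5p (0.51) did not pass. Of the 23 tested entries of the cell type lists 1 passed, below the 9.51% of all entries but too few to read a difference from. It was miR-1a-3p, a muscle miRNA, with 587, 0 and 185 counts in CON and 144, 2 and 3 counts in FAC. CON replicate 2 held none of it, so the groups overlapped although the log2 fold change was -5.43 (SE 1.76, adjusted p = 0.0994).

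What the moving entries share in sequence was described for the entries with a matched sequence, 90 of the 106 abundant ones, which held 64.6% to 79.2% of the counts of a library. The count-weighted GC content was 47.3% ± 0.371 in CON and 47.2% ± 1.65 in FAC, and the count-weighted length was 22.26 ± 0.011 and 22.20 ± 0.086 bases (SD, n = 3 each, two-sided exact permutation test, p = 0.9 and p = 0.4). The median GC content was 47.8% in the 12 rising and 57.4% in the 34 falling entries with a sequence, against 52.2% in the 473 tested ones, but 49% and 50% in the 8 and 13 abundant ones, against 49% in all abundant entries. The letters GGAG, a motif that the vesicle sorting protein hnRNPA2B1 is known to bind, were searched on the mature strand and stood in 9 of the 90 abundant entries (10.0%) and in 67 of all 549 with a sequence (12.2%). Their share of the counts was 1.94%, 1.62% and 2.24% in CON and 0.787%, 1.06% and 1.25% in FAC, lower in every FAC library (exact p = 0.1, adjusted p = 0.5 over 5 sequence measures). miR-125b-1-3p and let-7e-5p led this group. Shares of entries with CCCU or GGCU overlapped between the groups.

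Arm use within a hairpin overlapped as well. In the 6 hairpins with at least 10 counts on each arm in all 6 libraries, let-7d, miR-30a, miR-34c, miR-99b, miR-125a and miR-423, no ratio of 5p to 3p separated the groups (0.0%, smallest exact p = 0.2). miR-99b came near, with log2 ratios of 4.86, 4.63 and 4.46 in CON and 3.03, 3.27 and 4.64 in FAC. Over the 96 hairpins with at least 10 counts on each arm over the 6 libraries, 12 separated the groups (12.5%).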

How the data were processed

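The authors sequenced small RNA of exosomes (exoEasy Maxi kit, Illumina HiSeq, reads of 15 to 41 bp) and deposited, for each of 12 libraries, whole-number read counts on 637 miRNA entries (5 join 2 miRNAs). A second set of deposited files, named as TPM, holds RPM values: dividing counts by them gave 1 read total a library, with no length term. The submitters' processing notes name mm9, while the aligner, the miRNA database and the handling of multiply matching reads are not given in the sources used here. mm9 coordinates were not used. Sequences came from RefSeq (GRCm38.p6), matched by name for 549 entries, and 88 stayed units of their own. Here edgeR 4.0.16 (R 4.3.3) was run with TMM and a quasi-likelihood test on entries that reached 10 counts in all over the 12 libraries. All 4 groups entered 1 fit to share the estimate of the spread, with FAC against CON as contrast, and the same was done on counts summed over bases 2 to 8. The threshold was a fold of 1.5 with an unadjusted p under 0.05. Abundant entries had at least 10 counts in each of the 6 libraries. Shares were compared by exact permutation tests (scipy 1.17.1), and floors cover counting error alone because reads were amplified. Alternatives were DESeq2 1.42.0, limma 3.58.1 on log2(RPM + 1) and log2(RPM + 0.1), other scalings and filters, thinning, the replicate number as a block, and leaving out each library.

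Single entries named were those at an adjusted p under 0.05, the 8 smallest p in each direction among calls without overlap, the 10 largest shares and the 5 smallest p in each direction among abundant entries; families and list members followed like rules. Members and lists were chosen with earlier results of these data known. No 2 of the 6 libraries agreed within sampling noise.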

Additional observations from a re-analysis of the deposited data

How the results depend on the processing

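Scale had the widest effect. On library read totals, log2(RPM + 1) and log2(RPM + 0.1) with limma, 159, 195 and 203 entries passed the threshold, all higher in FAC, 89, 128 and 114 of them at an adjusted p under 0.05, and the median log2 fold change of the abundant entries moved from -0.11 to 3.11, 3.21 and 3.38. Families gave 136, 164 and 171 calls, 72, 107 and 95 adjusted. In that order of scales, log2 fold changes turned to 1.37, 1.39 and 1.39 for let-7b-5p, 2.19, 2.25 and 2.25 for let-7c-5p, 1.10, 1.23 and 1.24 for let-7e-5p, 2.53, 2.60 and 2.60 for miR-122-5p, 0.52, 0.37 and 0.37 for miR-125b-1-3p, 2.55, 3.00 and 3.00 for miR-143-3p, 2.31, 2.32 and 2.32 for miR-151-3p, 1.52, 1.61 and 1.63 for miR-328-3p, 1.95, 1.42 and 1.42 for miR-423-5p, 2.84, 2.31 and 2.31 for miR-486a-5p, 1.17, 1.05 and 1.06 for miR-615-3p, and 1.19, 0.96 and 0.96 for miR-674-3p. The let-7 family turned to 2.06, 2.13 and 2.13, the let-7j pair to 1.47, 1.14 and 1.20, and the miR-200b family to 0.53 under log2(RPM + 0.1). These scales take the share of reads on miRNAs into every level.

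Within the miRNA scales, adjusted calls among entries were 16 with DESeq2 size factors, 21 with DESeq2, 2 with total counts, 6 with the 6 libraries fitted alone, 7 after thinning, 0 with filterByExpr and 8 (31 past the threshold) among abundant entries alone. For families they were 11 and 18 with DESeq2 size factors and DESeq2, 3 with the 6 libraries alone and 6 (27 past the threshold) among abundant families alone. The cause was not tested. The value of miR-10b-5p was -0.0036 with DESeq2 size factors and with DESeq2, its family had -0.0071 and -0.034, and -0.044 with the trimmed mean on families. miR-486a-5p had 0.017 with total counts. The 10 leading entries differed by 0.029 percentage points at a minimum of 50 counts, and the looser rule on hairpins gave 12.5%.

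With a library left out, 33 to 63 entries passed, 0 to 17 adjusted, and 26 to 56 families, 0 to 15 adjusted. The highest counts, 63 and 17, came without FAC replicate 3, the 17 being 1 higher and 16 lower. The adjusted p (edgeR) was then 0.000625 for let-7c-5p, 0.00509 for let-7e-5p and miR-151-3p, and 0.00252 for miR-99a-5p. It was 4.96e-05 for miR-615-3p, 0.000492 for miR-674-3p, 3.43e-05 for miR-125b-1-3p, 0.0141 for miR-130b-5p and 2.99e-15 for miR-423-5p. This library lay nearest to CON for many entries, so leaving it out favours a difference. Some values changed sign. They ranged from -1.56 to 0.544 percentage points for the 10 leading entries, -1.64 to 0.0956 for the effective number, -2.36 to 1.75 points for miR-143-3p, -1.04 to 0.531 points for GC content and -0.78 to 2.42 points for entries with CCCU. The share of the leading entry was -0.30 to 5.92 points, and log2 fold changes were -0.087 to 0.42 for miR-10b-5p, -0.064 to 0.39 for its family, -0.81 to 0.14 for miR-143-3p, -2.15 to 0.30 for miR-486a-5p and -4.93 to 2.33 for the miR-200b family. The miR-200b family had -3.77 with all libraries and turned positive only without CON replicate 1. let-7 and miR-99 family shares kept their direction, at -14.2 to -9.46 and 9.26 to 15.0 points.

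Same-numbered CON and FAC libraries had correlations of -0.0031, -0.0081 and 0.186 of their deviations. Differently numbered ones ranged from -0.203 to 0.269. The values gave no sign of pairing by number, but so few correlations cannot decide whether the samples were paired. With the replicate block, 39 entries passed, 2 of them adjusted, and 36 families, 1 of them adjusted. Of the 52 calls, 16 had a p of 0.05 or more with the replicate block. The let-7 to miR-99 ratio, the genomic neighbours and the families joined by name were added after seeing the data. Low depth in CON limits entries near the floor.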
